A study of Mus musculus with 2 samples.

Results

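The cells described here are those of the small intestinal stroma that the authors labelled SMCs, for smooth muscle cells. They were chosen by that label alone, and they made up 468 of the 9359 annotated cells of the small intestinal library (5.00%, exact 95% binomial interval 4.57 to 5.46). The library came from healthy, untreated mouse small intestine, freed of most epithelium with EDTA and then dissociated with collagenase and dispase for 45 min. Live cells without CD45, a leukocyte protein, and CD326, an epithelial one, were collected by flow cytometry. A colon library prepared with a 60 min digestion supplied 125 cells of the same label. The labels give neither the number of animals nor their strain, age or sex, and each tissue had 1 library, so no difference below has a replicate check. All intervals cover counting error only. The submitters' notes name mm10 as the genome build.

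Smooth muscle cells of the gut wall contract when calcium entering through voltage-gated channels, or released from stores, binds calmodulin and activates myosin light chain kinase, which lets smooth muscle myosin pull on actin filaments. The serum response factor SRF and its cofactor myocardin switch on most genes of this apparatus by binding a DNA motif called the CArG box. In the intestine smooth muscle forms the outer muscle layers and the thin muscularis mucosae, and single strands run up the core of each villus beside fibroblasts. Fibroblasts of the mucosa make the collagen-rich matrix and signals for the epithelium, and Adamdec1, a secreted metalloprotease, marks those of the lamina propria.

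The SMC label cells held 2806195 unique molecular identifiers (UMIs, each marking 1 captured RNA molecule), with a median of 5644.5 UMIs and 2455 genes per cell. Median depth was 6977 UMIs in the CD81- fibroblasts (CD81- FBs, 2823 cells), 7807 in the CD81+ Trophocytes, 5510 in the SEMFs, 4117.5 in the lymphatic endothelial cells (LECs) and 3651.5 in the blood endothelial cells (BECs). Levels below are CPM, a gene's summed UMIs in a label per 1000000 UMIs of that label. No cell was removed as a doublet. Scrublet marked 85 of the 9359 cells (0.908%), among them 4 of the SMC label cells. Scores in the top 6% of the library were found for 10.7% of SMC label cells (8.03 to 13.8), the largest share among the 6 labels, and for 8.47% of CD81- FBs. The 2 libraries shared 21 cell barcodes, and none of the SMC label cells of the small intestine carried one of them.

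The markers given for the label describe it and do not test it. The label rests on a clustering of the same transcripts. Actg2, Myh11, Cnn1, Des, Adamdec1 and Npnt were each highest in the SMC label among the 6 labels with at least 50 cells. Single markers of several other cell types were at 0. Kit, the receptor that marks interstitial cells of Cajal, had no UMI, nor did the glial genes Sox10 and Gfap, the mesothelial gene Wt1, the leukocyte gene Ptprc or the epithelial gene Epcam. The sort had left out cells with CD45 or CD326. Other members of some lists were detected. The 3 genes of interstitial cells of Cajal summed to 38.5 CPM (55.3 in CD81- FBs, 421 in SEMFs). The 5 glial genes summed to 3.92 CPM (3.32 in CD81- FBs), and the 6 immune genes to 5.35 CPM (7.49 in CD81- FBs). In each of these lists 1 gene was highest in the SMC label. Lists of other mesenchymal cells were not near 0. The 9 pericyte genes summed to 1397 CPM, against 922 CPM in CD81- FBs and 1372 CPM in SEMFs. Most of this was Rgs5, at 1188 CPM, while Mcam, an adhesion molecule of mural and endothelial cells, was at 43.5 against 0.546 CPM in CD81- FBs. The 7 trophocyte genes summed to 613 CPM (3521 in Trophocytes) and the 8 SEMF genes to 497 CPM (8886 in SEMFs). The 6 blood endothelial markers summed to 23.9 CPM, against 6950 CPM in BECs. The 6 lymphatic markers summed to 352 CPM, against 17706 CPM in LECs and 298 CPM in CD81- FBs, and most of this was Pdpn (210 CPM), which fibroblasts also carry. Lyve1, Ccl21a and Mmrn1 were more than 2-fold above CD81- FBs, of 4 measured. Of the 194 UMIs of the lymphatic chemokine Ccl21a, 149 came from the 4 cells marked by Scrublet. With these cells and a group of 16 cells described further on left out, 71 of 73 named genes past 2-fold stayed past it, and all 73 kept their direction.

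Genes of the contractile apparatus were higher in the SMC label cells than in the CD81- FBs almost throughout. Of the 27 listed genes, 26 had at least 100 UMIs in both labels together, and 24 of these were more than 2-fold higher and none more than 2-fold lower. Across all 10939 genes with that many UMIs, 3.59% were more than 2-fold higher and 4.49% more than 2-fold lower. These shares are the background for the counts of each later list against CD81- FBs. The median log2 ratio of the contractile genes was 2.45, beside -0.02 for all genes. The labels rest on a clustering of the same transcripts, so these ratios describe the label and do not test it.

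Cnn1, which encodes the actin-binding protein calponin, had the largest ratio of the list. It stood at 397 CPM in SMC label cells. The other values were 4.55 CPM in LECs, 0.992 in CD81- FBs, 0.920 in SEMFs, 0.456 in BECs and 0.399 in Trophocytes, which gives a log2 ratio to CD81- FBs of 8.64 (95% interval 8.01 to 9.36). Actg2, the enteric smooth muscle actin, was at 727 CPM against 10.7 in CD81- FBs, and no other label exceeded that value. Lmod1, a leiomodin that nucleates actin filaments, was at 265 CPM against 6.35 CPM in CD81- FBs, the highest of the other labels. For these 3 genes no other label of the 6 compared exceeded 10.7 CPM.

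Other contractile genes were shared with the cells labelled SEMFs, which had the most Pdgfra (2778 CPM, against 125 CPM in SMC label cells). Acta2, the actin of vascular smooth muscle and myofibroblasts, was at 6336 CPM in SMC label cells, 2017 in SEMFs and 341 in CD81- FBs. Tagln, an actin-crosslinking protein, was at 5616, 2605 and 253 CPM. Myh11, the smooth muscle myosin heavy chain, was at 1554, 245 and 26.7 CPM, a log2 ratio to SEMFs of 2.66. Myl9, the regulatory myosin light chain, was at 1590, 800 and 104 CPM, and Tpm2, a tropomyosin, at 1364, 473 and 134 CPM. Des, the muscle intermediate filament desmin, was at only 178 CPM, against 25.7 in CD81- FBs and 21.3 in SEMFs. Of the 27 genes, 23 were highest in the SMC label, and the other 4 had more in another label. These were Smtn (84.8 CPM, and 134 in LECs), Cald1 (833 CPM, and 1605 in SEMFs), Actn1 (279 CPM, with 307 in SEMFs and 281 in BECs) and Ppp1r14a, an inhibitor of myosin phosphatase (299 CPM, and 322 in SEMFs). Synm, a partner of desmin, was nearly level with CD81- FBs (67.4 and 49.7 CPM).

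**Figure D1:**
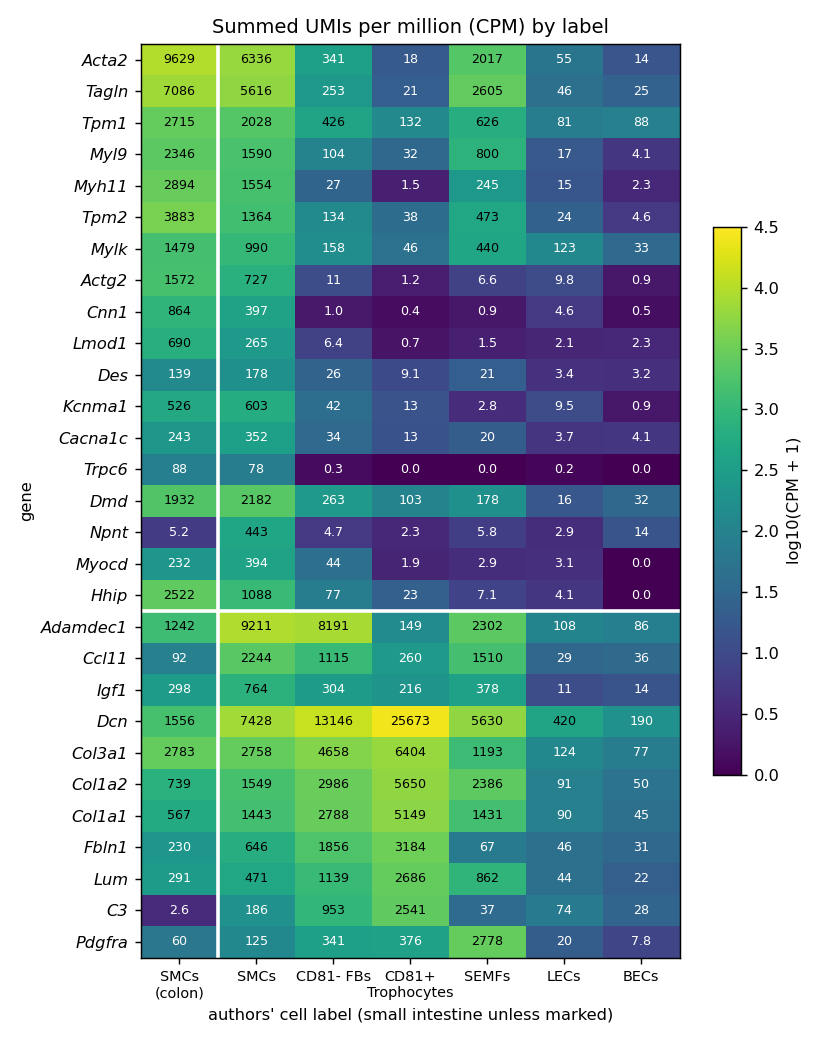
Colour and figures show the level of each gene (rows; log10 of CPM + 1, with the CPM printed) in each label of the small intestine and in colon SMC label cells (first column). Actg2, Cnn1, Lmod1, Trpc6 and Npnt are at most 13.7 CPM in every other small intestinal label, while Adamdec1 is as high in SMCs (9211 CPM) as in CD81- FBs (8191 CPM).

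Because the contractile genes were high together, the promoters of the list were searched for the CArG box in the 250 bases before each annotated start, using the RefSeq promoter table (build GRCm38.p6, the assembly also called mm10). Of the 27 genes, 23 were in the table. An exact CArG box, which reads the same class of sequence on both strands, was present for 3 of the 23 (13%), namely Myl9, Myl6 and Ldb3, and for 1.62% of all 27025 genes of the table. Ldb3 had 12 UMIs in SMC label cells, too few to be counted above. Among the 6 matched genes of the 8-gene muscle list used further on, none had an exact box and 1 had one under the looser rule that follows. With 1 G or C allowed among the inner A or T bases, 6 of the 23 (26.1%) had a box, beside 9.78% of all genes. The fibroblast matrix list, whose genes were lower in the SMC label cells, gave 4 of 13 genes (30.8%) under the looser rule and none under the exact rule. The lists are small, and a match is a description of letters in the window. Below are 3 of these windows, given 5′ to 3′ on the gene's own strand and ending at the base before the start. Capitals mark boxes (exact, or with 1 inner G or C). Myl9 and Myl6 were chosen for their exact box, and Acta2 because it was the most abundant gene of the list. Myl9 is at chr2:156775214-156775463 (plus strand), Acta2 at chr19:34255374-34255623 (minus strand) and Myl6 at chr10:128493010-128493259 (minus strand).
Myl9: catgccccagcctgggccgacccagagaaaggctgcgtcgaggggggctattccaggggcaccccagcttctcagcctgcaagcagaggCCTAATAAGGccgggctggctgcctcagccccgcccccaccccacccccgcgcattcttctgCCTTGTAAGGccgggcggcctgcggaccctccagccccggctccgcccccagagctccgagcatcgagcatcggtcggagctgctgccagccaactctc
Acta2: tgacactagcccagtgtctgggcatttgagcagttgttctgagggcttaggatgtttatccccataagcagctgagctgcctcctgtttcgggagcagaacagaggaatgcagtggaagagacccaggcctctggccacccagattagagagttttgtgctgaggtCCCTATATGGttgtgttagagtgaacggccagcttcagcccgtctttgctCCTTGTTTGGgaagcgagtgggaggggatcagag
Myl6: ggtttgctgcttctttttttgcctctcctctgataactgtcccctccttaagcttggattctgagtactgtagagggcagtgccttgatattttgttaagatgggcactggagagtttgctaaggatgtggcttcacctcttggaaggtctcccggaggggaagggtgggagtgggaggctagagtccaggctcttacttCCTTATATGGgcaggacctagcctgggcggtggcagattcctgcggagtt
Acta2 had 2 boxes with an inner G or C and no exact one, starting 84 and 34 bases before the start. The exact box of Myl9 began 161 bases before its start and was followed by a second box with 1 inner G. Myl6, the essential myosin light chain found in most cells, had its exact box 50 bases before the start, and its level was 3868 CPM in SMC label cells and 1157 CPM in CD81- FBs.

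Genes that couple excitation to contraction were higher as a group too. Of 20 listed genes 15 had enough UMIs, and 9 of these were more than 2-fold higher and 1 more than 2-fold lower than in CD81- FBs, with a median log2 ratio of 1.53. Cacna1c, the pore of the L-type calcium channel, was at 352 CPM against 34.0 CPM. Kcnma1, the large-conductance potassium channel that calcium opens, was at 603 against 41.7 CPM, and its smooth muscle subunit Kcnmb1 at 55.9 against 6.20 CPM. Trpc6, a receptor-operated cation channel, was at 78.0 CPM against 0.347 CPM (log2 ratio 7.81, 6.74 to 9.14) and had no UMI in Trophocytes, SEMFs or BECs. Prkg1, the cyclic GMP-dependent kinase that relaxes smooth muscle, was at 1144 against 397 CPM, and the phosphodiesterase Pde5a at 508 against 187 CPM. The muscarinic receptor Chrm3 was the exception, at 32.4 CPM against 156 CPM in CD81- FBs. Genes of the calcium store differed among themselves. Casq2, calsequestrin, which binds calcium in the store, was at 62.0 against 3.87 CPM (95% interval of the log2 ratio 3.61 to 4.41), with 94.3 CPM in SEMFs. The calcium pump Atp2a2 was at 273 against 238 CPM and the channel Itpr1 at 388 against 265 CPM, while the release channel Ryr2 (15.3 against 2.43 CPM) had too few UMIs to be counted. Ednra, an endothelin receptor, was at 68.8 and 55.1 CPM, with 943 CPM in SEMFs.

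Among muscle regulators the cofactor Myocd stood out, at 394 CPM in SMC label cells, 43.8 in CD81- FBs and at most 3.12 CPM in the remaining labels. Srf was at 17.1 against 8.53 CPM, and Mef2c, another muscle transcription factor, at 144 against 34.0 CPM, although LECs (430 CPM) and BECs (576 CPM) had more. These were the 3 of 11 measured members above 2-fold, and the median of the list was 0.77. The log2 ratio of Srf, 1.00, was between 0.91 and 0.97 in 3 alternatives, which ends its call. The myocardin-related factors Mrtfa (99.1 and 109 CPM) and Mrtfb (64.5 and 74.4 CPM) were close to the CD81- FB level. Mesenchymal factors of the gut that fibroblasts also carry were within 2-fold: Nkx2-3 was at 544 against 294 CPM, Foxf1 at 167 against 104 CPM and Tcf21 at 804 against 565 CPM. Gata6, a factor of vascular smooth muscle, had no UMI.

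In the adhesion and dystrophin list, 5 of 14 measured genes were more than 2-fold higher and none was lower by that much (median log2 ratio 0.82). Npnt, nephronectin, a basement membrane ligand of integrin alpha 8 beta 1, was at 443 CPM in SMC label cells. Elsewhere it was at 13.7 CPM in BECs, 5.83 in SEMFs, 4.66 in CD81- FBs, 2.86 in LECs and 2.33 in Trophocytes. Its receptor subunit Itga8 was at 25.7 against 13.4 CPM. Dmd, dystrophin, which ties the cytoskeleton to the matrix, was at 2182 against 263 CPM, while its ubiquitous relative Utrn was at 291 against 333 CPM and the sarcoglycans Sgcb, Sgcd and Sgce were within 2-fold. Vcl and Tln1, which link actin to integrins, were at 415 against 130 CPM and 218 against 98.2 CPM.

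**Figure D2:**
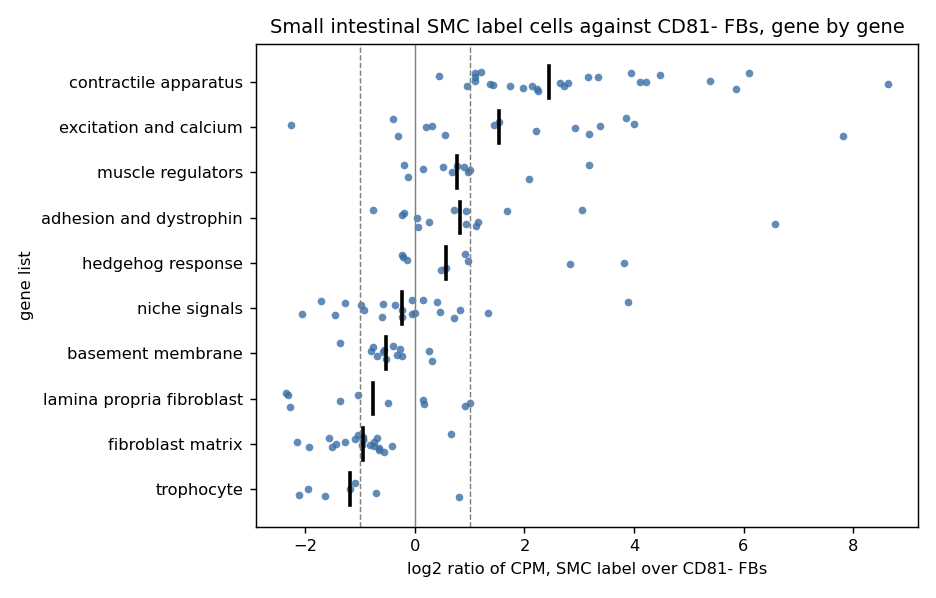
Each point is 1 gene with at least 100 UMIs in both labels together, placed by its log2 ratio of CPM in SMC label cells over CD81- FBs (horizontal axis) and by list (vertical axis). Black bars are list medians and dashed lines mark 2-fold, and the contractile list has its median at 2.45 with every gene above 0, whereas the fibroblast matrix list has its median at -0.95.

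Outside these lists, the 15 genes furthest above CD81- FBs (ranked after adding 10 CPM to both labels) held 9 contractile genes, Npnt, Kcnma1 and Hhip, and also Frem2, an extracellular matrix protein (285 CPM, log2 ratio 4.25), Fbxl22 (216 against 11.1 CPM) and the diacylglycerol kinase Dgkb (108 against 1.34 CPM). Against the highest of the other labels, Ctnnd2 (96.6 CPM, highest elsewhere 1.49) and the integrin subunit Itga4 (116 CPM, highest elsewhere 3.72) also ranked among the first 10.

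Of 9 measured genes of the hedgehog pathway, 2 were more than 2-fold higher. Genes of the hedgehog and signal lists are named here after their values were seen. Hhip, a membrane protein that binds hedgehog ligands and limits their action, was at 1088 CPM in SMC label cells, 77.4 in CD81- FBs, 22.6 in Trophocytes and at most 7.05 CPM elsewhere (log2 ratio to CD81- FBs 3.81, 3.72 to 3.90). The coreceptor Gas1 was at 216 against 30.5 CPM, and at 220 CPM in Trophocytes. The receptor and target Ptch1 was at 394 against 209 CPM, and the target Gli1 at 44.9 against 30.4 CPM. Among signals to the epithelium, 2 of 21 measured genes were more than 2-fold higher and 4 more than 2-fold lower, with a median of -0.23. The shares over all genes were 3.59% and 4.49%. Igf1, insulin-like growth factor 1, was at 764 against 304 CPM. Bmp2 was at 51.0 against 167 CPM, and the Wnt inhibitor Frzb at 10.7 against 44.9 CPM. Grem1 did not differ beyond counting error (162 and 168 CPM).

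The SMC label cells also carried a fibroblast programme at high level. Adamdec1 was the most abundant of the listed fibroblast transcripts, at 9211 CPM (log2 ratio to CD81- FBs 0.17, 0.15 to 0.19), against 149 in Trophocytes, 2302 in SEMFs, 108 in LECs and 86.2 in BECs. Ccl11, the eosinophil attractant eotaxin, was higher than in any other label at 2244 CPM, against 1115 CPM in CD81- FBs and 1510 CPM in SEMFs (log2 ratio 1.01, 0.97 to 1.05). Without the cell that held most Ccl11 UMIs the ratio was 0.99. The main fibrillar collagens and decorin were lower than in CD81- FBs and above LECs. Dcn, decorin, was at 7428 CPM against 13146 in CD81- FBs and 420 in LECs, Col1a1 at 1443 against 2788 and 89.7 CPM, and Col3a1 at 2758 against 4658 and 124 CPM.

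Of 21 fibroblast matrix genes, all measured, 8 were more than 2-fold lower than in CD81- FBs and none more than 2-fold higher (median log2 ratio -0.95). The lowest were Fbln2 (60.6 against 270 CPM), Col14a1 (229 against 883 CPM) and Dpt (359 against 1073 CPM). Mfap5, a microfibril protein, was the only one above the CD81- FB level (601 against 380 CPM). Of the 10 lamina propria genes, 5 were more than 2-fold lower and 1, Ccl11, more than 2-fold higher. C3, the central complement component, was at 186 against 953 CPM, and Edil3 at 53.8 against 268 CPM. By the ranking with 10 CPM added, the lowest genes against CD81- FBs were the metalloprotease Mmp10 (26.0 against 261 CPM), Ces1d (26.4 against 248 CPM) and the complement component C7 (47.0 against 353 CPM). Basement membrane genes were closer, with 1 of 13 more than 2-fold lower, Col15a1 (121 against 314 CPM), beside 4.49% of all genes. The collagen IV chains Col4a1 (929 against 744 CPM) and Col4a2 (435 against 365 CPM) were above CD81- FBs. Immediate early and heat shock genes, which dissociation can induce, were also higher: 5 of 12 exceeded 2-fold, among them Fos at 2591 against 1230 CPM, with 4334 CPM in Trophocytes and 5991 CPM in BECs. Their part in the differences was not tested.

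Muscle and fibroblast transcripts were found in the same single cells. To compare cells at equal depth, each was thinned at random to 2000 UMIs, and a cell was counted for a programme with at least 2 UMIs from its list. The muscle list was Actg2, Myh11, Cnn1, Des, Lmod1, Synm, Synpo2 and Smtn, and the fibroblast list was Adamdec1, Dcn, Lum, Col1a1, Col1a2, Pdgfra, C3 and Fbln1. Of 455 SMC label cells deep enough, 354 had both (77.8%, 73.7 to 81.5). Only the fibroblast list reached 2 UMIs in 95 cells (20.9%) and only the muscle list in 6 cells (1.32%). No cell was under 2 UMIs for both lists. Of the 455 cells, 34 had no muscle UMI at all. The median SMC label cell held 5 muscle and 40 fibroblast UMIs of its 2000. At their own depth, 96.2% of the 468 cells had both. After thinning, and leaving out cells with a doublet score in the top 6%, the share was 77.9%.

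Co-detection was much less common in the other labels. Both programmes were found in 7.83% (6.86 to 8.90) of 2770 CD81- FBs, 22.7% (20.2 to 25.3) of 1079 SEMFs and 1.37% of 1894 Trophocytes. Every cell of these labels reached the fibroblast threshold, so the shares are those of the muscle list alone. That list holds Actg2, Myh11, Cnn1 and Des, markers given for the SMC label, so the contrast describes the label and does not test it. The median CD81- FB held no muscle and 62 fibroblast UMIs, and the median SEMF 1 muscle and 29 fibroblast UMIs. The endothelial labels are given for comparison. Their UMIs of these lists can come from free RNA or from cells caught together, which was not tested. Single LECs held up to 39 muscle UMIs or up to 91 fibroblast UMIs. Both were found in 0.936% of 2350 LECs and in 0 of 445 BECs, which allows a share of up to 0.674% (3 cells of the total). At least 2 fibroblast UMIs were found in 9.11% of LECs and 7.42% of BECs, against 98.7% of SMC label cells. These LECs and BECs had medians of 4275 and 4039 UMIs before thinning, and the SMC label cells 5735. At least 2 muscle UMIs were found in 7.57% of LECs. These rest in part on Smtn, which was detected in 22.8% of LECs and 13.6% of SMC label cells. Synm was likewise detected in 10.8% of LECs, 9.06% of CD81- FBs and 14.1% of SMC label cells.

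**Figure D3:**
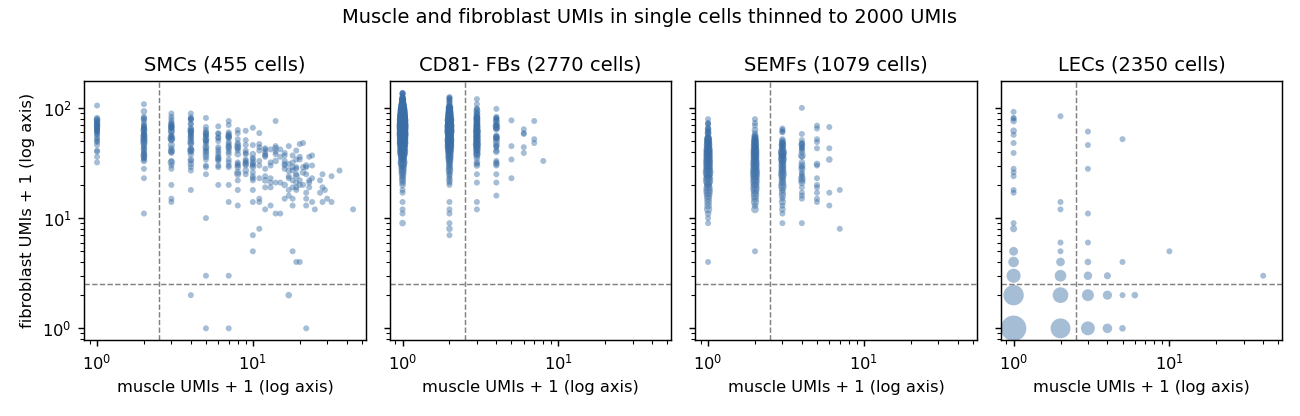
Each point places cells of a label by their muscle UMIs (horizontal) and fibroblast UMIs (vertical) after thinning to 2000 UMIs, both plus 1 on log axes, with larger points for more cells at the same values. Dashed lines mark the threshold of 2 UMIs, and 354 of 455 SMC label cells lie in the upper right field, against 217 of 2770 CD81- FBs.

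The share of thinned cells with a UMI differed from gene to gene. Adamdec1 was detected in 96.9% of the 455 SMC label cells and Dcn in 97.8%, against 17.3% of LECs for Dcn. Other genes of the fibroblast list were in fewer SMC label cells than CD81- FBs: Lum in 44.6% against 79.1%, Fbln1 in 37.4% against 83.1%, C3 in 18.5% against 58.3% and Pdgfra in 14.5% against 47.4%. Acta2 was detected in 95.6% of SMC label cells, 25.8% of CD81- FBs and 2.38% of LECs, and Npnt in 45.3%, 0.975% and 0.128%. The 95 SMC label cells with under 2 UMIs of the muscle list still had UMIs of genes that mark the label. Of these cells, 89.5% (81.5 to 94.8) had an Acta2 UMI and 12.6% (6.70 to 21.0) an Npnt UMI. Myh11, from the muscle list itself, had a UMI in 23.2% of them. Acta2 is in the contractile list and Npnt is a given marker, so these shares describe the label and do not test it.

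The 2 programmes varied against each other within the label. Over the 455 cells the muscle and fibroblast UMIs had a Spearman correlation of -0.65, given as a description, since the cells share 1 library and a fixed total. The correlation with the muscle list was -0.65 for Dcn and -0.54 for Fbln1, but -0.23 for Adamdec1, and it was 0.38 for Ccl11, 0.53 for Npnt and 0.65 for Hhip. The cells were then ordered by their muscle UMIs and divided into 4 bins of 114, 114, 114 and 113 cells, with 0 to 2, 2 to 5, 5 to 10 and 10 to 43 muscle UMIs. Bins are ranges and not cell types, and cells with equal counts lie on both sides of each boundary. Median depth in the bins ran from 5547.5 to 6084 UMIs. Levels in the bins use all UMIs of the cells. Genes of the muscle list differ between them by construction, and Cd34, Gsn, Igf1, Ly6a, Nrg1 and Col3a1 are named after their values were seen.

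Fibroblast genes did not fall together from the lowest to the highest bin. Adamdec1 was at 10600, 9676, 8790 and 7635 CPM, a log2 ratio of the highest to the lowest bin of -0.47 (-0.53 to -0.42). Dcn was at 11149, 9764, 5605 and 2845 CPM (-1.97), and Gsn, the actin-severing protein gelsolin, at 5061, 3884, 1766 and 564 CPM (-3.17). Fbln1, a matrix fibulin, was at 1214, 987, 276 and 66.0 CPM (-4.20, -4.69 to -3.76), so that the highest bin was close to the 45.7 CPM of LECs. Ly6a and Cd34, surface markers of many fibroblasts, went from 618 to 28.3 CPM and from 248 to 15.7 CPM. In the highest bin Adamdec1 was still about level with CD81- FBs, and Fbln1, Ly6a and Cd34 were at the level of LECs.

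Ccl11 ran the other way, at 1170, 1568, 2299 and 4133 CPM (1.82, 1.71 to 1.93). Igf1 was at 333, 563, 1050 and 1148 CPM (1.78), Hhip at 160, 340, 1213 and 2781 CPM (4.12) and Npnt at 108, 251, 459 and 989 CPM (3.19). Nrg1, the epidermal growth factor family ligand neuregulin 1, was at 6.94, 49.6, 127 and 262 CPM (5.24, 3.99 to 6.88). Myocd was at 211 CPM in the lowest and 581 CPM in the highest bin, and Tcf21, a fibroblast-lineage factor, at 794 and 667 CPM. Fos differed little, at 2582 and 3045 CPM.

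**Figure D4:**
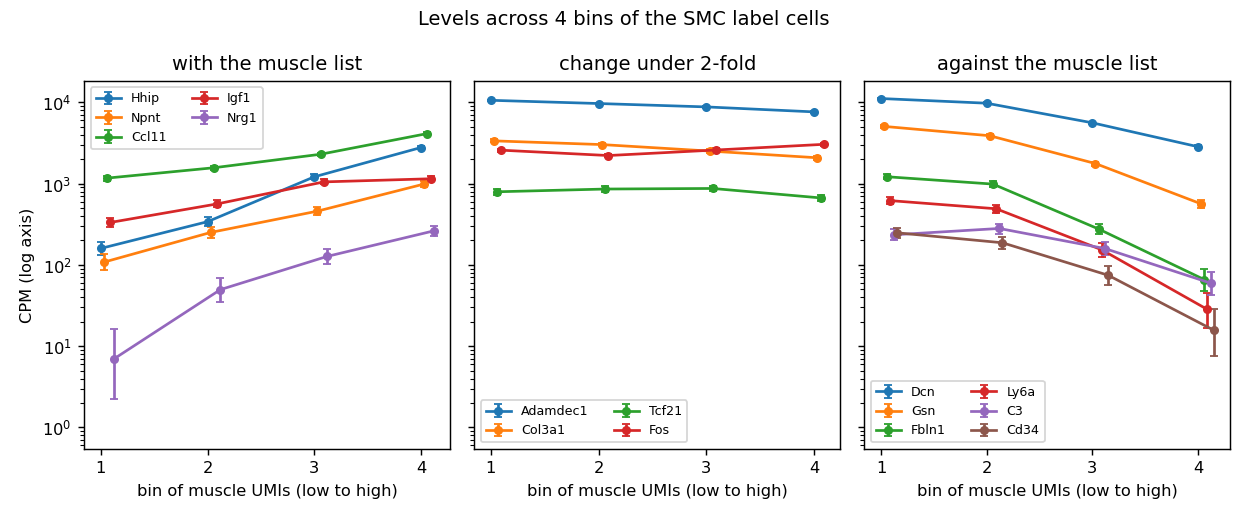
Lines give the CPM (log axis, bars are exact 95% Poisson intervals) of genes outside the muscle list in the 4 bins of SMC label cells ordered from low to high muscle UMIs. Hhip, Npnt, Ccl11, Igf1 and Nrg1 are higher in each later bin, Adamdec1 moves from 10600 to 7635 CPM, and Fbln1 from 1214 to 66.0 CPM.

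Ratios of some fibroblast genes to Adamdec1 differed between the bins. For Col3a1 the ratio differed little, at 31.7 UMIs per 100 Adamdec1 UMIs in the lowest and 27.3 in the highest bin, against 56.9 in CD81- FBs. CD81- FBs had 22.7 Fbln1 UMIs per 100 Adamdec1 UMIs, and LECs had 42.3. The SMC label cells had 11.5 in the lowest and 0.864 (0.622 to 1.17) in the highest bin. For Dcn the values were 160.5 per 100 Adamdec1 UMIs in CD81- FBs, 390 in LECs, 105 in the lowest bin and 37.3 (35.3 to 39.3) in the highest. For Ccl11 they were 13.6 in CD81- FBs, 27.3 in LECs, 11.0 in the lowest bin and 54.1 (51.6 to 56.8) in the highest. In SEMFs the values were 2.91 for Fbln1, 244.6 for Dcn and 65.6 for Ccl11. In the cells richest in muscle UMIs, Fbln1 and Dcn were lower and Ccl11 higher per Adamdec1 UMI than in CD81- FBs and in LECs.

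Clustering the 468 cells alone gave 5 groups. The groups were made from the 1500 most variable genes of these same cells, so the levels below describe the groups. The first group held 156 cells and was led by Cnn1, Hhip, Actc1, Ccl21a and Nrg1. It was the only group with at least 3 of the 6 smooth muscle markers among its 10 leading genes (Cnn1, Npnt, Actg2 and Des), and it held the 4 cells marked by Scrublet. Ccl21a had 171 UMIs there, 86 of them in 1 cell. All 147 of its cells deep enough had both programmes. In this group Actg2 was at 1553 CPM and Myh11 at 3090 CPM, and Adamdec1 at 8954 and Ccl11 at 4328 CPM, but only 5 UMIs of Fbln1 (6.33 CPM) and 12 of C3 (15.2 CPM) were counted among its 789293 UMIs. Actc1, the cardiac muscle actin, was at 238 CPM, against 9.42 in the other SMC label cells and 0.0496 in CD81- FBs.

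The second group (138 cells) was led by C3, Col14a1, Mgp, Fbln1 and Ly6a. Its Dcn level of 12732 CPM was close to that of CD81- FBs, and Acta2 was at 4046 CPM, against 341 CPM in CD81- FBs. Of its cells deep enough, 62.8% (54.1 to 70.9) had both programmes. The third group (133 cells) was led by Fibin, Igfbp3, Apoe, Rgs5 and Khdrbs2. It had the highest Adamdec1 level, 12394 CPM, with Acta2 at 2694 CPM, and 67.9% of its cells had both programmes. The fourth group had 25 cells, led by Cxcl14, Frmd4b, Defa24, Mdk and Wnt4, with a median of 8550 UMIs per cell. All 35 UMIs behind its Defa24 level were in 1 cell. Its Acta2 level was 10757 CPM and its Fos level 618 CPM, the lowest of the groups. No group was given a cell type name.

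The fifth group had 16 cells and low levels of several fibroblast transcripts. Of its 15 cells deep enough, 8 had both programmes (53.3%, 26.6 to 78.7). It was led by Nrxn3, Rrad, Ebf1, Sorbs2 and Ctnna3. Adamdec1 had 18 UMIs in 2 of its cells (237 CPM), Ccl11 was at 289 CPM and Dcn at 1039 CPM, but Grem1 was at 421 CPM, above CD81- FBs (168 CPM). Acta2 was at 11746, Tagln at 12536 and Myh11 at 2526 CPM. It held 19 of the 21 UMIs of Notch3 (250 CPM), a receptor of mural cells, and 12 of the 13 UMIs of Ano1, a calcium-activated chloride channel. Rgs5, a gene of pericytes, was at 1565 CPM, but at 2097 CPM in the third group and 778 CPM in CD81- FBs. Notch3, Ano1 and Rgs5 are named after their values were seen. With so few cells, these levels rest on 76023 UMIs.

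In the space of the whole small intestinal library, SMC label cells lay next to one another and next to CD81- FBs. Among the 20 nearest cells, 79.1% on average carried the SMC label, 19.8% the CD81- FB label and 1.05% any other. For 370 of the 468 cells (79.1%, 75.1 to 82.7) most of these neighbours were SMC label cells, and for 96 most were CD81- FBs. The share of CD81- FB neighbours was 0.385% in the first group, 37.5% in the second, 27.1% in the third, 14.0% in the fourth and 5.63% in the fifth. Over the 11052 genes that reached 10 CPM in 1 or more labels, the summed profile of the SMC label had a Spearman correlation of 0.942 with CD81- FBs, 0.873 with Trophocytes, 0.852 with SEMFs, 0.659 with LECs and 0.616 with BECs. Between CD81- FBs and Trophocytes it was 0.931. Genes are not independent replicates. Leaving out the contractile and muscle genes, the value with CD81- FBs was 0.944.

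Colon cells with the same label gave a different balance of the 2 programmes. After thinning, 119 of 123 colon SMC label cells had both (96.7%, 91.9 to 99.1), with a median of 11 muscle and 7 fibroblast UMIs. Of 5602 genes compared between the colon and the small intestinal SMC label, 3.37% were more than 2-fold higher in the colon and 17.3% more than 2-fold lower, with a median log2 ratio of -0.27. The contractile list had a median of 0.51, with 23 of 26 genes above 0 and 5 more than 2-fold higher, among them Actg2 (1572 against 727 CPM), Cnn1 (864 against 397 CPM) and Tpm2 (3883 against 1364 CPM). Myocd was at 232 against 394 CPM.

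The fibroblast list was lower in the colon cells for all 8 genes, with a median of -1.42. Adamdec1 was at 1242 against 9211 CPM, Dcn at 1556 against 7428 CPM and C3 at 2.59 CPM (2 UMIs) against 186 CPM. Ccl11 was at 91.9 against 2244 CPM, a log2 ratio of -4.61. By the ranking with 10 CPM added, the 5 genes furthest below were the heparanase-related gene Hpse2 (10.4 against 3278 CPM), Sntg1 (2.59 against 849 CPM), the ephrin Efna5 (3.88 against 696 CPM), the alarmin Il33 (3.88 against 422 CPM) and Npnt (5.18 against 443 CPM). Most of these 5 genes were also high in other small intestinal labels. Hpse2 was at 3693 CPM in SEMFs and 3554 in CD81- FBs, and Efna5 at 786 CPM in Trophocytes. Sntg1 was at 574 CPM in CD81- FBs and Il33 at 453 CPM in LECs, while Npnt did not exceed 13.7 CPM elsewhere. The Npnt receptor subunit Itga8 was higher in the colon, at 202 against 25.7 CPM. The 5 furthest above were Gm42418, a gene model overlapping ribosomal RNA sequence (89307 against 1462 CPM), the retinol carrier Rbp4 (1257 against 14.3 CPM), Cdk8, Cmss1 and Lars2. Gm42418, Cdk8, Cmss1 and Lars2 took 11.1% of the colon cells' UMIs and 0.193% of the small intestinal ones. Leaving them out of both totals added 0.17 to every log2 ratio. The 8-gene fibroblast list was lower in the colon in other labels as well. Median fibroblast UMIs per thinned cell, colon against small intestine, were 40 against 62 in CD81- FBs and 54 against 91 in Trophocytes. They were 20.5 against 29 in SEMFs and 7 against 40 in the SMC label. The colon labels came from the authors' subclustering, which also named 8 pericytes, while no small intestinal cell was labelled a pericyte. Tissue, digestion time, library and labelling cannot be told apart in these differences.

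**Figure D5:**
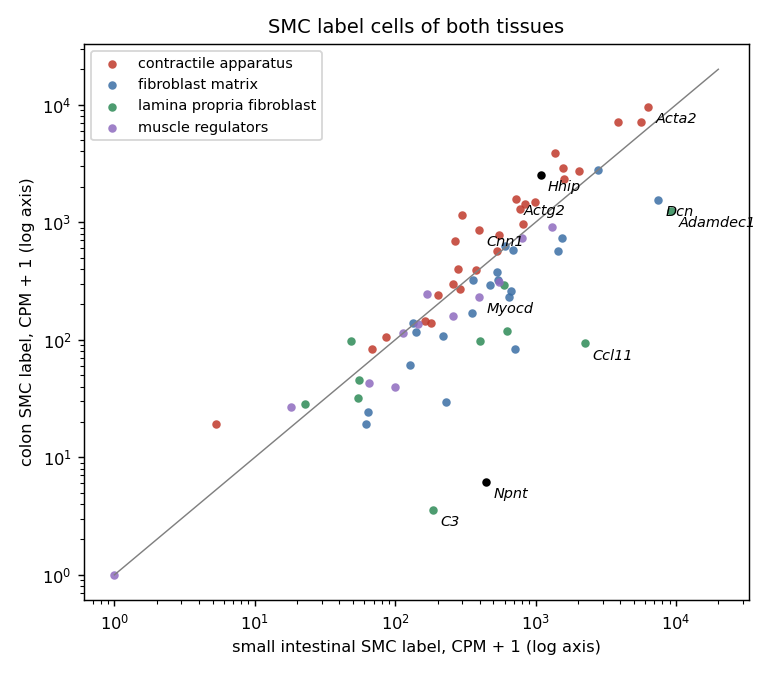
Points are genes of 4 lists (colours), with Npnt and Hhip in black, placed by CPM + 1 in small intestinal (horizontal) and colon (vertical) SMC label cells on log axes, and the line marks equal levels. Contractile genes such as Actg2 lie above the line, and Adamdec1, Dcn, Ccl11, C3 and Npnt lie below it.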

How the data were processed

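Single-cell RNA-seq of sorted stromal cells from mouse colon and small intestine was used, with 1 library per tissue. The deposited raw counts are UMIs per gene and cell, already filtered by the authors, and the deposited natural log values equal ln(1 + UMIs × 10000 / UMIs of the cell) within 0.001 for 100% of nonzero values in 500 cells checked. Cell Ranger 7.1.0, Seurat 4 and build mm10 are named in the submitters' processing notes, and the filters are not given in the sources used here. Cell labels are the authors', taken from a cell type column for the small intestine and from a subclustering column for the colon. UMIs were summed per label and expressed as CPM, and log2 ratios carry exact conditional binomial 95% intervals. Genes needed at least 100 UMIs in both labels together. Total UMIs were 2806195 in SMC label cells and 20156679 in CD81- FBs.

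The members and gene lists were chosen with earlier results of these data known. Genes named were members of the muscle, adhesion, lamina propria and marker lists, plus the 15 highest and 10 lowest against CD81- FBs, the 10 highest against the highest other label, and 5 each way between tissues. These were ranked after adding 10 CPM, with detection in at least 10% of cells, and up to 5 leading genes per group were ranked after adding 50 CPM. Matrix, basement membrane, stress, other cell type and signal genes were named after their values were seen. Some list members are not reported here by name. Groups came from Leiden clustering (resolution 0.5, 1500 variable genes, 20 components, 15 neighbours), and nearest cells from 2000 variable genes and 30 components. Scrublet used an expected rate of 6%. Promoters came from the RefSeq table of GRCm38.p6. Code was tested on simulated data. Alternatives covered weighting, scaling, thinning, UMI minimums, doublet scores, lists and clustering. Python 3.11.15, numpy 2.4.6, scipy 1.17.1, pandas 2.3.3, scikit-learn 1.9.0, scanpy 1.11.5, leidenalg 0.10.2 and matplotlib 3.10.9 were used.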

Additional observations from a re-analysis of the deposited data

How the results depend on the processing

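No paired analysis was possible because each tissue has 1 library. The genes more than 2-fold higher in SMC label cells than in CD81- FBs numbered 393, with 755 at a minimum of 20 UMIs, 3341 at 1 UMI and 49 with differences of natural log values. Those more than 2-fold lower numbered 491, with 1005, 1116 and 47 under the same settings and 818 with cells thinned to 2000 UMIs. The contractile median of 2.45 was 2.25 at either lower minimum and 0.96 with natural log differences, which compress ratios. The fibroblast matrix median of -0.95 was -1.06 with equal weight per cell, -1.04 with thinned cells and -0.68 with natural log differences. The share of cells with both programmes, 77.8%, was 91.9% at 1 UMI, 65.9% at 3 UMIs and 48.1% at 5 UMIs of each list. It was 61.7% after thinning to 1000 UMIs, 86.9% after thinning to 3000 and 96.2% without thinning. Without Adamdec1 and Dcn, an alternative chosen after seeing the data, it was 69.7%. The correlation of -0.65 between the programmes was -0.51 at 1000 UMIs and -0.72 at 3000. Resolution 0.3 gave 3 groups in place of 5, and 50 neighbours gave 74.8% of cells with mostly SMC label neighbours in place of 79.1%. The likeness to CD81- FBs of 0.942 was 0.911 over genes with at least 50 CPM. Between tissues, the contractile median of 0.51 was 0.79 when centred on the median gene and 0.68 without 4 genes (also chosen after seeing the data). The fibroblast median of -1.42 was -1.62 with equal weight per cell and -1.14 when centred. No value changed sign. All 73 named genes past 2-fold kept their direction in 8 alternatives, and 70 to 73 stayed past 2-fold, except with natural log differences (36). Ccl11 was at 0.99 and Rbp4 at 0.97 without the cell with most UMIs of the gene, Fgf10 at -0.97 after thinning, and Srf between 0.91 and 0.97 in 3 alternatives. The 17 genes followed across the 4 bins kept their direction in 68 of 68 recomputed values. The cause of these shifts was not tested. With 1 library per tissue, no variation between animals could be measured.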
